A study of Mus musculus with 8 samples.

Results

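The genes described here are 10 of the mouse pathway that shows antigens on MHC class I molecules, together with the related molecule MR1: Mr1, H2-K1, H2-D1, B2m, Tap1, Tap2, Tapbp, Psmb8, Psmb9 and Nlrc5. They were chosen by symbol, and of the 10 genes only Mr1 (ENSMUSG00000026471) had a row among the 1933 gene rows shared by the 8 count tables. The rows with a symbol all lie on chromosome 1, where Mr1 is. The other 9 genes lie on chromosomes 2, 8 and 17 and were not analysed here. The results are therefore those of Mr1 and of those genes of the wider pathway that had a row.

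The libraries were RNA sequencing libraries of hepatic stellate cells, liver pericytes that store vitamin A, labelled as isolated from livers with metabolic steatohepatitis (MASH). One group was AREL1HSC-KO (called KO below), labelled as lacking the E3 ubiquitin ligase AREL1 in stellate cells, and the other, AREL1fl/fl (fl/fl below), is named for floxed alleles alone; each had 4 libraries. Mice of both groups were male, were put on Western diet at 4 weeks of age for 20 weeks and were killed in week 24. The labels name no Cre driver. They leave unsaid whether 1 mouse or several stand behind the libraries of a group, and the p-values therefore rest on the variation among the libraries, technical or not. The genotype field of 3 KO libraries carries another digit in the gene name, and the titles were followed. Arel1 was not analysed here, so the knockout was not checked on its target.

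Most nucleated cells cut cytosolic proteins into peptides with the proteasome, whose interferon-induced subunits include Psmb8 and Psmb9. The TAP1-TAP2 transporter carries the peptides into the endoplasmic reticulum, tapasin (Tapbp) helps to load them onto the heavy chains H2-K1 or H2-D1 paired with beta-2-microglobulin (B2m), and the complex is read by CD8 T cells. NLRC5 drives transcription of several of these genes. MR1 is a class I-like heavy chain that also pairs with beta-2-microglobulin, but it holds small vitamin B2-related metabolites of microbes in place of peptides and shows them to mucosal-associated invariant T (MAIT) cells. Much of it waits in the endoplasmic reticulum until a ligand arrives.

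The reference sequence in front of Mr1 is shown beside that of B2m, whose product is the partner of MR1. Each line holds the 250 bases upstream of the RefSeq gene start, 5′ to 3′ on the gene's strand (GRCm38.p6, Mr1 at chr1:155146815-155147064 on the minus strand and B2m at chr2:122147437-122147686 on the plus strand). Capitals mark matches to 7 motifs, searched on both strands.
Mr1: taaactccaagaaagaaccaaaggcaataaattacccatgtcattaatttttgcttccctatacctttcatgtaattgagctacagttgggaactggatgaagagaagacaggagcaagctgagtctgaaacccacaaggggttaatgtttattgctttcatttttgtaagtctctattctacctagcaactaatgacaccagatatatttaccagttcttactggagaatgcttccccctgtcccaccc
B2m: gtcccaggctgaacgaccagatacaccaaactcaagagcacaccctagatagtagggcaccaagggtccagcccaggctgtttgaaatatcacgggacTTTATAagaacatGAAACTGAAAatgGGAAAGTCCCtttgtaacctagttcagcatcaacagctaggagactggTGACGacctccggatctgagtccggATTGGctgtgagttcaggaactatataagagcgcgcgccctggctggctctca

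The motifs were an interferon-response core (GAAA, any 2 bases, GAAA), a STAT site (TTC, any 3 bases, GAA), an NF-kappaB form (GGG, any 3 bases, TTCC), the core of the cyclic AMP-response element TGACG, the CCAAT box, the GC box GGGCGG and the TATA box TATAAA. They occur in 2.98%, 7.02%, 4.65%, 17.8%, 33.8%, 32.7% and 12.4% of the 32851 RefSeq windows of this length. In the 390 windows of genes tested below the shares were 2.31%, 5.90%, 5.13%, 25.6%, 32.3%, 59.2% and 5.38%, in the same order. The Mr1 window held none of the 7, as did 27.1% of all windows. The B2m window held 5 of them once each, with no overlap between them. Of the 8 listed genes with a window, Mr1 was the 1 without any match, and TGACG occurred in 5 and CCAAT in 6. The GC box and the TATA box occurred in 3 each. The interferon-response core and the NF-kappaB form each occurred in 1 alone, B2m, and the STAT site in 1 alone, Psmb8. The windows of H2-K1 and H2-D1, like that of Mr1, held none of these last 3 motifs. The windows of Psmb9 and Tap1 share most of their bases, so the matches in them are not independent. A match is a run of letters and not a binding site, and the absence of a match says only that these letters are not in the window.

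Mr1 was lower in KO than in fl/fl stellate cells in every library. In the KO libraries 278, 317, 224 and 235 reads fell on Mr1 (replicates 1 to 4), and in the fl/fl libraries 293, 274, 266 and 255. As CPM, the reads scaled to the library's gene-assigned total with TMM composition factors, the level was 11.4, 12.4, 10.9 and 12.1 CPM in KO and 15.1, 15.6, 15.4 and 14.6 CPM in fl/fl. The raw counts of the groups overlapped, and the KO libraries were deeper on average (22298276 gene-assigned reads in KO and 18137149 in fl/fl), but the scaled levels did not: the highest KO library, replicate 2, lay below the lowest fl/fl library, replicate 4.

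Mr1 averaged 11.7 ± 0.666 CPM in KO and 15.2 ± 0.441 CPM in fl/fl (SD, n = 4 each). It was 0.77 times as high in KO, with a 95% interval of the percent change of -30.1% to -15.1% (log2 fold change -0.38, SE 0.069; edgeR quasi-likelihood test, Benjamini-Hochberg adjusted p = 7.99e-05 over 420 genes). A two-sided exact permutation test on the CPM values gave p = 0.0286, the smallest that 4 against 4 libraries allow. The fall did not rest on 1 library: with each library left out in turn the log2 fold change lay between -0.41 and -0.35. Fewer cells that express Mr1 and less Mr1 RNA per cell cannot be told apart in bulk libraries.

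**Figure D1:**
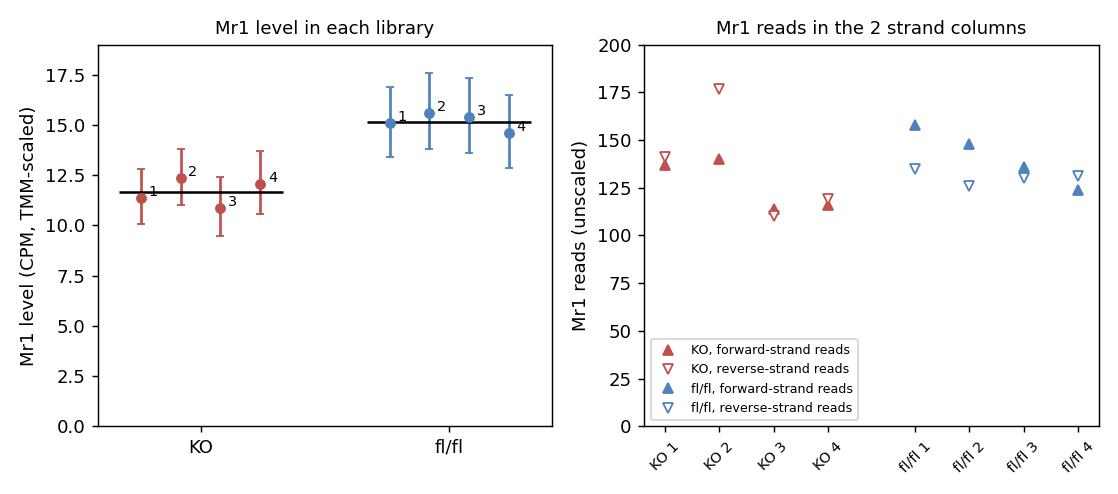
The left panel plots the Mr1 level of each library in CPM (points, numbered by replicate, with exact Poisson 95% intervals for counting error; black lines are group means), and the 4 KO libraries, at 10.9 to 12.4 CPM, all lie below the 4 fl/fl libraries, at 14.6 to 15.6 CPM. The right panel plots unscaled Mr1 reads in the forward (filled) and reverse (open) strand columns, which hold similar numbers in most libraries.

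These levels rest on 1054 Mr1 reads over the 4 KO libraries and 1088 over the 4 fl/fl libraries. Counting alone gives a coefficient of variation of about 6.20% per KO library and 6.07% per fl/fl library, and the libraries of a group varied by 5.71% in KO and 2.91% in fl/fl. The spread between libraries of 1 group was thus no wider than counting error. Single-library intervals overlapped between the groups for some pairs: KO replicate 2 covered 11.0 to 13.8 CPM and fl/fl replicate 4 covered 12.9 to 16.5 CPM. The kit is named as stranded, but Mr1 reads were shared by both strand columns (137, 140, 114 and 116 forward and 141, 177, 110 and 119 reverse reads in KO; 158, 148, 136 and 124 forward and 135, 126, 130 and 131 reverse reads in fl/fl). The call held in either column, with a log2 fold change of -0.48 from forward reads (edgeR adjusted p = 0.00016) and -0.27 from reverse reads (adjusted p = 0.0319). No other gene overlaps Mr1 in the GENCODE M21 annotation used for symbols.

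Mr1 lay below the middle of the tested genes. Per kilobase of annotated exon (5981 bases in GENCODE M21) its level was 1.95 CPM in KO and 2.54 CPM in fl/fl, and over the 8 libraries it ranked 289 of 419 tested genes with an exon length, whose median was 5.25 CPM per kilobase. Its change was larger than that of most changed genes. Among the 158 genes that changed, the absolute log2 fold change had a median of 0.19, and Mr1 ranked 24 among them by size and 12 among the 81 that fell. The background is high: 37.6% of the 420 genes passed the test, 19.3% lower and 18.3% higher in KO, and the groups did not overlap in 31.4% (KO below fl/fl in 16.7%). The call for Mr1, 1 of 1 listed genes measured, is therefore read as that of a single gene. The higher share among calls was 48.7%, and 69.8% with upper-quartile scaling or 60.6% with library totals alone; Mr1 stayed lower and called with both (log2 fold changes -0.33 and -0.34).

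**Figure D2:**
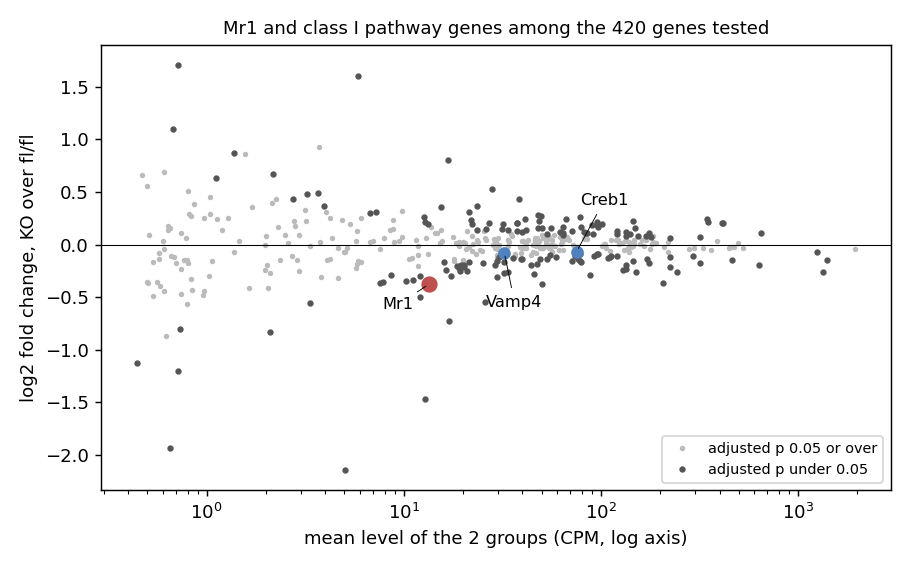
Each point is 1 of the 420 tested genes, with its mean level over both groups in CPM (log axis) and its log2 fold change, KO over fl/fl; dark points passed the adjusted p of 0.05. Mr1 (red, -0.38) lies lower than the 2 other class I pathway genes marked (blue), Vamp4 at -0.077 and Creb1 at -0.067.

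The wider pathway was followed through 7 lists: class I chains and peptide loading, MHC-like molecules, transcription of class I genes, proteasome, MR1 trafficking, interferon response and T cell costimulation. Of the 144 genes considered from them, 9 had a row and 3 were abundant enough to test, Mr1, Creb1 and Vamp4. Neither of the 2 besides Mr1 passed the test (edgeR), and their median log2 fold change was -0.072, against 0.0034 over all 420 genes.

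Both lay slightly lower in KO on average. Creb1, a transcription factor of the cyclic AMP response that also takes part in the complex on class I promoters, stood at 73.6 ± 2.22 CPM in KO and 77 ± 1.48 CPM in fl/fl (SD, n = 4 each; log2 fold change -0.067, edgeR adjusted p = 0.121). Vamp4, a SNARE protein of the trans-Golgi network that in human cells takes part in MR1 trafficking, stood at 31.5 ± 2.32 CPM in KO and 33.2 ± 1.92 CPM in fl/fl (log2 fold change -0.077, 95% interval -0.19 to 0.031). For Creb1 the 95% interval of the log2 fold change was -0.13 to 0.0016. In both genes the groups overlapped, for Creb1 narrowly (KO replicate 3 at 75.6 CPM and fl/fl replicate 2 at 75.3 CPM). The lists of peptide loading and of the proteasome had no gene in the rows, and that of T cell costimulation had 6, none of them abundant enough to test, with summed levels of 0.450 to 0.623 CPM in KO and 0.154 to 0.572 CPM in fl/fl.

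Among the tested genes Mr1 lies between Ier5 and Stx6 on chromosome 1, and its neighbours did not move as a block. Of the nearest tested genes on both sides 9 are given, of which 3 fell, 1 rose and 5 did not pass (edgeR), with a median log2 fold change of -0.069. Over all 420 genes 19.3% fell and 18.3% rose. The next gene on one side, Ier5, an immediate early response gene, stood at 76.5, 72.5, 73.5 and 76.1 CPM in KO and 84.9, 83.7, 89.1 and 77 CPM in fl/fl. The groups stood apart narrowly, with fl/fl replicate 4 next to KO, and Ier5 fell by 10.8% (edgeR adjusted p = 0.000988). The next gene on the other side, Stx6, a syntaxin of the trans-Golgi network, stood at 44.3 ± 2.44 CPM in KO and 46.3 ± 0.303 CPM in fl/fl and did not pass (log2 fold change -0.069, 95% interval -0.15 to 0.017). Further along, BC034090 fell by 11.1% (adjusted p = 0.00485, and 0.0832 with forward-strand counts) and Qsox1, which oxidises thiols to disulfides in secreted proteins, fell by 22.9% (adjusted p = 1.77e-08). Xpr1, a phosphate exporter, rose by 8.02% (adjusted p = 0.0324), with overlapping groups; 8 of 16 alternatives took this call away (adjusted p up to 0.314). Glul, Rgs16, Gm9530 and Acbd6 did not pass. Gm9530, at 0.446 CPM in KO and 0.793 CPM in fl/fl, had a log2 fold change of -0.86 (edgeR adjusted p = 0.0691). Rgs16, at 1.22 CPM and 1.03 CPM in the same order, had 0.25 (adjusted p = 0.5).

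**Figure D3:**
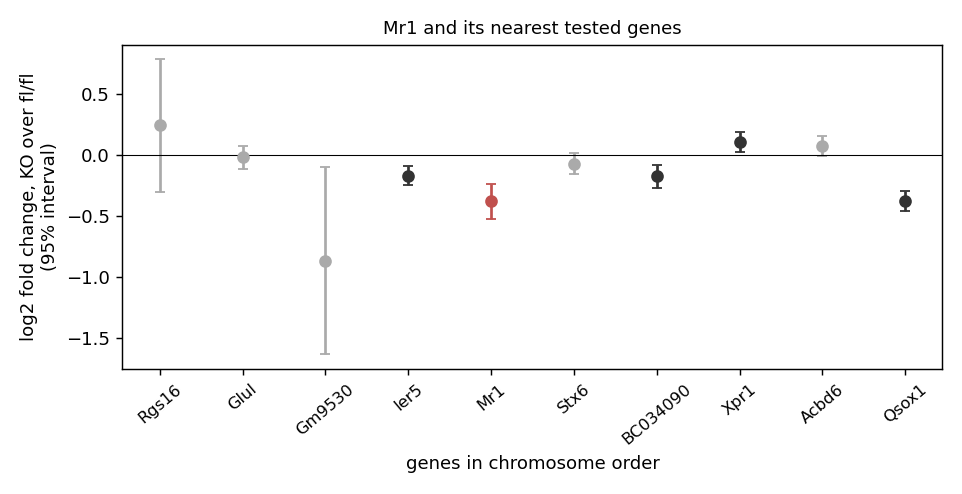
Log2 fold changes, KO over fl/fl, of Mr1 (red) and 9 of the nearest tested genes in chromosome order, with 95% intervals; black points passed an edgeR adjusted p of 0.05 and grey ones did not. Mr1 (-0.38) and Qsox1 (-0.38) are lower than the genes between them, which run from -0.17 to 0.11.

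The genes whose pattern over the 8 libraries was most like that of Mr1 were taken from the 320 other genes with a mean of at least 5 CPM, by the root mean square difference of log2 CPM after each gene was centred on its own mean. The closest were Sec16b, which helps organise the sites of export from the endoplasmic reticulum (0.062), Qsox1 (0.065), Prdx6, a peroxiredoxin (0.075), Itm2c, a membrane protein (0.078), and Hspd1, the mitochondrial chaperonin HSP60 (0.082). The median over the 320 genes was 0.208. All 5 fell in KO (edgeR), by 21.1%, 22.9%, 22.5%, 18.3% and 16.4%, as a gene must to lie close to Mr1 on this measure, and the likeness is a description of 8 libraries. Sec16b, Qsox1 and Hspd1 overlap another gene on the opposite strand in the annotation, and their reads cannot be assigned with certainty. The same limit holds for the neighbours Rgs16, Glul, Stx6, BC034090 and Xpr1 and for Col3a1, Col5a2 and Dpt below. Each overlaps another gene on the same or the opposite strand. The lowest fl/fl level of Mr1, Qsox1, Prdx6, Itm2c and Hspd1 was in each case that of replicate 4.

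**Figure D4:**
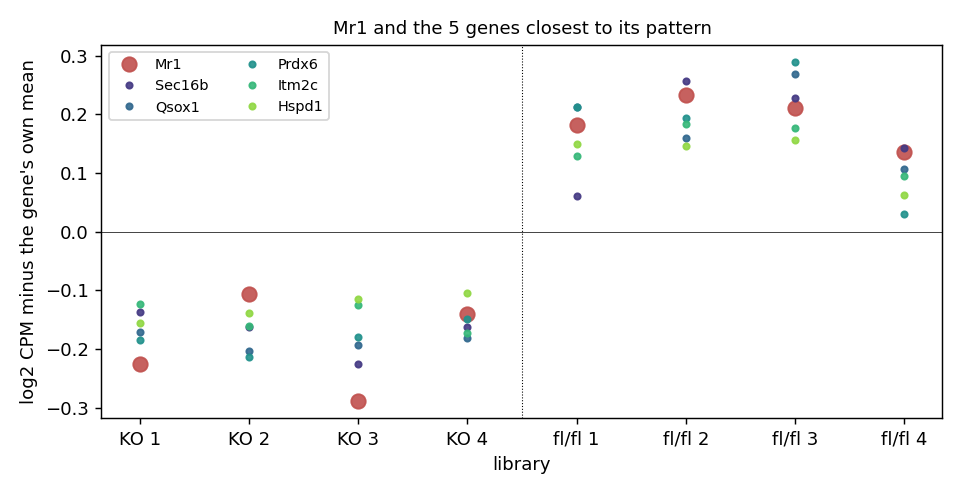
For Mr1 (large red points) and the 5 genes closest to it, the log2 CPM of each library minus the gene's own mean over 8 libraries. All points of the 4 KO libraries lie below 0 and all points of the 4 fl/fl libraries above it.

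Several measures of the libraries moved with genotype, and their part in the Mr1 result was not tested. Unmapped reads made up 1.52% ± 0.0557 in KO and 1.14% ± 0.0701 in fl/fl (SD, n = 4 each), and the TMM factor was 1.01 ± 0.0065 and 0.989 ± 0.0064 in the same order. Reads outside annotated features made up 4.05% ± 0.101 in KO and 4.32% ± 0.0188 in fl/fl. Each of these 3 measures separated the groups (exact permutation p = 0.0286, adjusted p = 0.0571 over 6 measures). Gene-assigned reads numbered 19271004 to 25165289 in KO and 17619387 to 19663030 in fl/fl. Replicate 4 of fl/fl was the library least like its group (chi-square per degree of freedom 3.37 to 3.47, against 1.39 to 1.86 among the other 3), and without it Mr1 had a log2 fold change of -0.40 (edgeR adjusted p = 7.62e-07). Leukocytes express MR1 too. Of 30 leukocyte markers, 7 had a row and their summed level was 3.28 to 4.05 CPM in KO and 3.12 to 3.95 CPM in fl/fl, most of it Batf3; Ctla4 and Xcl1 were at 0 in every library, and the markers Ptprc, Adgre1 and Cd3e were not analysed here. Hepatocyte markers (3 of 12 with a row) summed to 0.286 to 0.701 CPM in KO and 0.343 to 0.627 CPM in fl/fl, with C4bp at 0, and the 1 of 6 cholangiocyte markers with a row, Pkhd1, reached at most 0.0578 CPM. No endothelial marker of 8 had a row. Of 18 stellate cell and fibroblast markers the rows held Col3a1, Col5a2 and Dpt. They were expressed and fell in KO (edgeR), by 9.52%, 12.4% and 63.9%, and 19.3% of all 420 tested genes fell. The defining stellate markers Lrat, Reln and Des were not analysed here, so the label of the cells was not checked on them.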

How the data were processed

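Per the labels' protocols, stellate cells were purified on an OptiPrep gradient and poly(A) RNA was sequenced from stranded Illumina libraries. The authors deposited 1 table of raw read counts a library, as STAR's gene counter writes it. Named in the submitters' processing notes are STAR 2.7.10a, fastp, DESeq2 1.38.0 and the builds GRCm38 and GRCm39. Which annotation was used is not given in the sources read. The tables as read covered only part of the genes, and an incomplete last line was dropped in 7 of them. The 1933 shared rows were used, 1830 with a GENCODE M21 symbol. A gene without a row was not measured here, which says nothing about its expression. Either-strand counts were used, since reverse and forward reads were about equal. The library size was the gene-assigned total worked out from the table's summary lines (reads on features of a single strand, less the ambiguous ones), since the rows hold 3.20% to 3.28% of it.

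The deposited counts were tested with edgeR 4.0.16 in R 4.3.3 (filterByExpr, 420 genes; TMM; robust quasi-likelihood test; Benjamini-Hochberg over 420 genes, threshold 0.05). DESeq2 1.42.0 was an alternative. SEs come from the F statistic, exact permutation tests from scipy 1.17.1, and promoter windows from RefSeq. On counts simulated for these 420 genes, 49 of 100 changes of 1.1-fold, 90 of 100 of 1.3-fold and 6 of 220 unchanged genes were called. No 2 libraries of a group agreed within sampling noise (largest chi-square p = 3.68e-07). This check cannot tell whether the libraries of a group came from separate mice. In the edgeR fit the common coefficient of variation between libraries, beyond counting error, was 2.53%. Poisson intervals of single libraries cover counting error only; those of fold changes come from the edgeR SE. Named genes were all listed genes measured, all tested pathway genes and the 5 genes closest to the pattern of Mr1. They also included 9 of its nearest tested genes, searched up to 5 on each side. Cell type markers given by name are not counted among them. Other genes are said to be chosen later. The genes and lists were chosen with earlier results of these data known, and the motifs after Mr1 had been analysed. Some listed genes are not reported here.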

Additional observations from a re-analysis of the deposited data

Results flagged for a closer look

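The levels of 16 named genes were searched in KO and in fl/fl, 32 groups of 4 libraries, for 1 library set off from the other 3 by a gap of over 0.829 times the whole range. By chance about 1 in 20 groups would show this, 1.6 here, and 2 did. Neither was Mr1. In KO replicate 1, Xpr1 stood at 69.21 CPM, against 66.2 to 66.4 CPM in the other KO libraries (gap 0.932 of the range). In fl/fl replicate 4, Hspd1 stood at 1385 CPM, against 1469 to 1479 CPM in the other fl/fl libraries (0.89).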

How the results depend on the processing

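Mr1 stayed lower in KO and called under all 16 alternatives, with log2 fold changes of -0.48 to -0.27 and edgeR or DESeq2 adjusted p of 7.62e-07 to 0.0319; DESeq2 gave -0.38 and no filter -0.37. The count of 158 changed genes was 108 with adjusted p under 0.01 and 120 to 191 otherwise. The replicate numbers share only a number (same-number correlations of deviations -0.088 to 0.067): the replicate block gave 150 genes and -0.38 for Mr1 (adjusted p = 0.000208). Of 238 values for 15 other genes, 217 kept direction and side of the threshold, 9 lost a call, 5 gained one and 7 changed sign, none of them called. The sign changes were Glul, at 0.036 with upper-quartile scaling, 0.017 with library totals, 0.063 with reverse-strand counts and -0.043 to 0.0057 with a library left out (positive without KO replicate 3 or fl/fl replicate 1; -0.015 as reported); and Rgs16, at -0.090 with forward-strand counts and -0.016 to 0.45 with a library left out (negative without fl/fl replicate 1; 0.25 as reported). The cause was not tested. Acbd6 gained a call with upper-quartile scaling, library totals or without fl/fl replicate 4, and Gm9530, at under 1 CPM on average in both groups, without KO replicate 3 or fl/fl replicate 4. At about 250 Mr1 reads per library, counting error alone is near the whole spread within groups.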

Other observations

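Tnfsf18, the ligand of the T cell costimulatory receptor GITR, was below the filter on low counts and was picked out after its values were seen. It had 7, 11, 7 and 4 reads in the KO libraries and 1, 2, 0 and 3 reads in the fl/fl libraries, 29 in KO and 6 in fl/fl in all. Every KO library lay above every fl/fl library, by reads and by CPM, the closest being the 2 replicates 4 with 4 and 3 reads. Among the 420 genes that passed the filter, the groups did not overlap in 31.4%. In the fit without a filter (981 genes) its log2 fold change was 1.87 (SE 0.65, edgeR adjusted p = 0.0279), from counts this low. That fit called 149 of the 981 genes, 77 higher and 72 lower in KO.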
